A study of Mus musculus with 18 samples.

Results

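The cornified envelope and late differentiation genes were 38 genes chosen by symbol: 7 envelope scaffold and junction genes, 5 genes of the S100-fused family, 3 transglutaminases, 11 late cornified envelope (LCE) genes, 7 small proline-rich (SPRR) genes and 5 secreted or calcium-binding genes. All 38 symbols were found among the 55357 genes of the deposited table. RNA of whole back skin was sequenced from 18 FVB mice aged 6 months, each a library of its own. There were 6 wild-type mice (WT), 6 N-IKKa mice, whose keratinocytes, per the labels, hold exogenous IKKα in the nucleus, and 6 C-IKKa mice, whose keratinocytes hold it in the cytoplasm. IKKα is known as an NF-kB kinase and as a regulator of epidermal differentiation. The sources used here do not state the promoter that drives either form, the number of founder lines or the sex of the mice. Libraries are named by genotype and mouse number, as WT 1.

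The cornified envelope is a protein shell that replaces the plasma membrane of keratinocytes as they die to form the outer layer of the skin. Envoplakin and periplakin form its first scaffold, involucrin is laid upon it, and loricrin, small proline-rich and late cornified envelope proteins then reinforce it. Transglutaminases join these proteins by covalent bonds, and the filaggrin family aggregates keratin filaments inside the same cells. Hair follicles also cornify: transglutaminase 3 and trichohyalin, an S100-fused protein, work in the inner root sheath and the hair shaft.

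The libraries held 11.1 to 15.7 M counted reads (megareads), and values are normalized counts, in which 1 read is worth 0.816 to 1.203. The suprabasal keratins Krt1, Krt10, Krt2 and Krt77, which mark the epidermal layers that make the envelope, summed to between 30958 and 159242 normalized counts per library. Chuk, which encodes IKKα, had means of 1007 ± 147 normalized counts in WT, 990.4 ± 93.3 in N-IKKa mice and 889 ± 26.3 in C-IKKa mice (SD, n = 6), and limma did not call it in any of the 3 comparisons (adjusted p of 0.463 or above). These values show no excess of Chuk over WT in either transgenic group. The libraries fell into 2 separate clusters by the keratins of growing hair. The mean log2 value of 18 hair shaft and inner root sheath keratins was 10.28 or more in 6 libraries and 5.42 or less in the other 12. The high hair shaft samples were 3 N-IKKa libraries (8, 9 and 11), 2 WT libraries (1 and 4) and C-IKKa 14. They are samples defined from the data by a list that holds none of the 38 genes, not groups of the study. All 6 were read as female from Ddx3y, a Y-linked gene, whereas the 12 low samples were 4 females and 8 males, so results between hair states are also given for the 10 female libraries alone.

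Of the 38 genes, 28 reached 10 normalized counts in at least 6 libraries and were tested, and 10 did not. Compared per kilobase of exon, the most abundant in the 12 low hair shaft samples were Lce1m, a late cornified envelope gene, with a median of 2789.7 normalized counts per kb, Lor, which encodes loricrin, with 2576, and Sprr1a, a small proline-rich gene, with 2569.7. Cdsn, which encodes corneodesmosin, the glue between corneocytes, had a median of 2497. At the other end of the tested genes stood Sprr1b with 2.15, Sprr2h with 5.30 and Tgm3 with 7.90 per kb. In the 6 high hair shaft samples the order was another: Sprr1a led with 13298 per kb and Crnn, which encodes cornulin, came next with 4717, against 11.4 in the low samples. Lce1m and Lor stood at 1302 and 1162 per kb there.

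**Figure D1:**
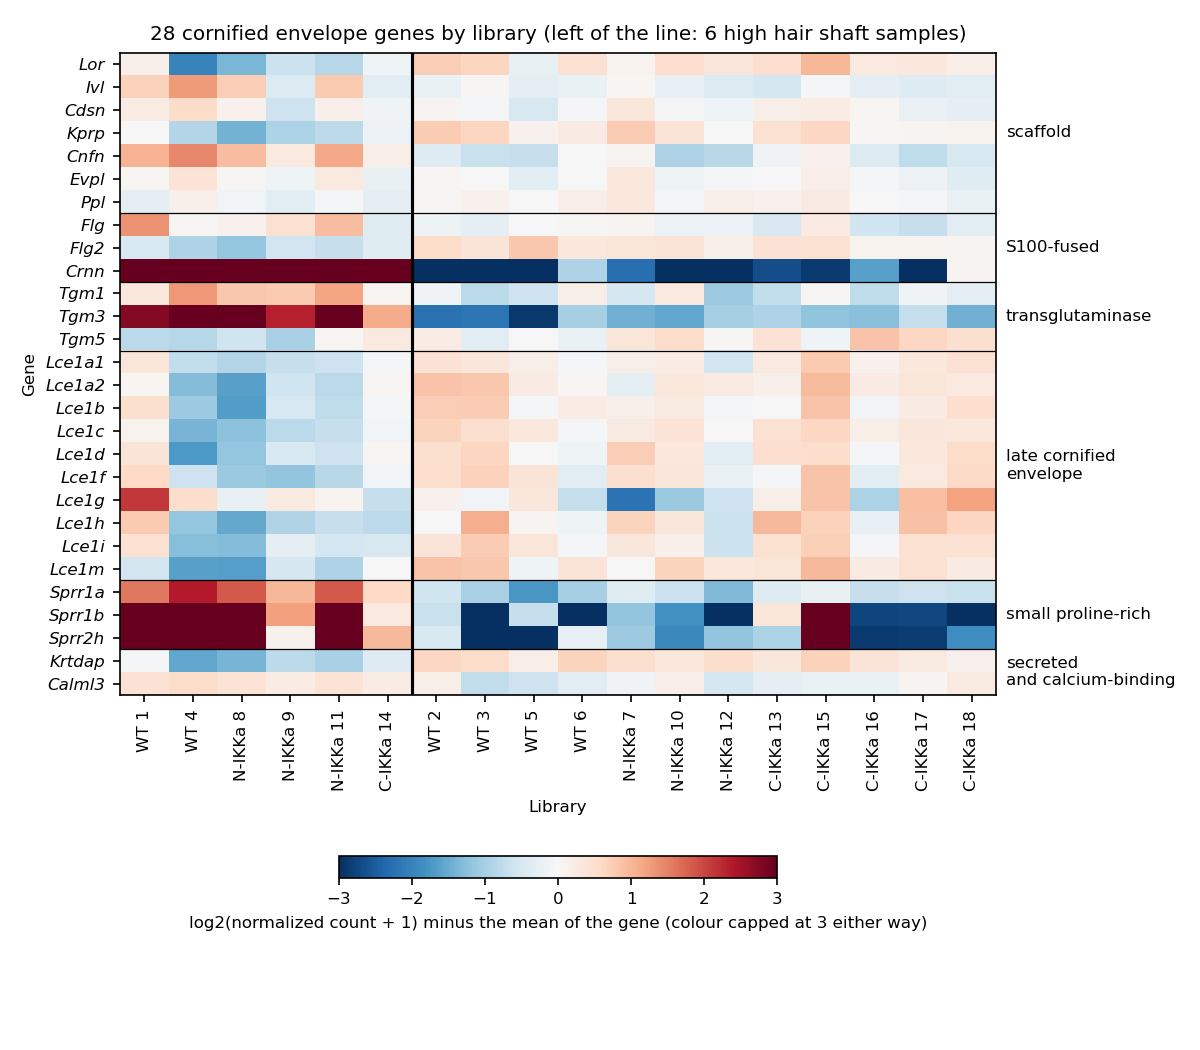
Each row is 1 of the 28 tested genes and each column 1 library; colour is log2(normalized count + 1) minus the mean of that gene, capped at 3 in either direction, with the 6 high hair shaft samples left of the line. Crnn, Tgm3 and the SPRR genes are red on the left of the line, and most LCE genes are blue there, a direction that is lost or turns when libraries are scaled to Krt1 and Krt10.

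The genotype comparisons ask whether these genes have another level in mice labelled as carrying exogenous IKKα in the nucleus or the cytoplasm of keratinocytes. None of the 28 tested genes was called by limma at an adjusted p below 0.05 in C-IKKa against WT, where the background was 0.345% of all 17667 tested genes. None was called in N-IKKa against WT, with a background of 0.00566%, and none in N-IKKa against C-IKKa, with a background of 0.43%. With so few genes called in all, a count of 0 among 28 lies near the background. At an unadjusted p below 0.05 there were 1, 1 and 4 of the 28 genes, against 5.73%, 4.14% and 11.7% of all tested genes. The count of calls was also 0 in each comparison with edgeR and with DESeq2 on recovered reads. No tested gene of the 28 had groups without overlap, where the background was 0.838% higher and 0.147% lower for C-IKKa against WT. For N-IKKa it was 0.0849% higher and 0.0396% lower against WT, and 0.311% higher and 0.736% lower against C-IKKa. The 3 comparisons share groups, so their values are not independent of each other.

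In C-IKKa against WT, Tgm5 had the smallest p. It encodes transglutaminase 5, which cross-links envelope proteins in the upper epidermis. Tgm5 ran from 217 to 458 normalized counts in WT with a median of 326, from 199 to 577 in N-IKKa with a median of 404, and from 361 to 716 in C-IKKa with a median of 537. The C-IKKa libraries lay in the upper part of the range but overlapped WT, since C-IKKa 15 with 361 was below WT 2 and WT 5. The log2 difference was 0.76 (SE 0.25, 95% limits 0.23 to 1.28, limma adjusted p = 0.47). With hair state as a covariate Tgm5 gave 0.65 (limma adjusted p = 0.156), and without the 6 high samples 0.53 (limma adjusted p = 0.224). Sex, read from Ddx3y, was uneven between genotypes, with 4 male C-IKKa libraries and 2 male libraries each in WT and N-IKKa. With hair state and sex as covariates, the largest difference of the 28 genes in C-IKKa against WT was 0.71, in a transglutaminase. The smallest limma adjusted p of the 28 was then 0.0982, and 0.703 with sex alone as covariate.

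The next smallest p belonged to Flg and Ivl. Flg, which encodes the filaggrin precursor, ran from 1825 to 5669 in WT with a median of 2240.4 and from 1386 to 2627 in C-IKKa with a median of 1672. The highest WT value was that of WT 1 alone, and the other 5 WT libraries reached 2272 at most. Ivl, which encodes involucrin, ran from 1572 to 4611 in WT with a median of 1810.1 and from 1322 to 1836 in C-IKKa with a median of 1520.3. The groups overlapped in both genes. For Ivl the log2 difference was −0.53 (SE 0.26, 95% limits −1.09 to 0.02, limma adjusted p = 0.893), with hair state as a covariate it was −0.43 (SE 0.20), and without the high hair shaft samples −0.15 (SE 0.11). Flg gave −0.43 (SE 0.21) with the covariate and −0.26 (SE 0.15) without the high samples, and none of these 4 values passed the threshold.

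In N-IKKa against WT the 3 smallest p values were those of LCE genes, whose products reinforce the envelope late in its assembly. Lce1a1 ran from 202 to 456 normalized counts in WT with a median of 403, from 182 to 391 in N-IKKa with a median of 221, and from 321 to 581 in C-IKKa with a median of 414. Lce1a1 was at 225 or less in 4 of 6 N-IKKa libraries and in 1 WT library, WT 4, and the groups overlapped. The log2 difference was −0.49 against WT (SE 0.22, limma adjusted p = 0.88) and −0.72 against C-IKKa (SE 0.22, limma adjusted p = 0.273).

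Lce1g, the least abundant tested LCE gene, ran from 9.62 to 74.6 in WT with a median of 19.6, from 2.77 to 19.9 in N-IKKa with a median of 12.1, and from 8.06 to 38.97 in C-IKKa with a median of 24.4. Its log2 difference in N-IKKa against WT was −1.02 (SE 0.51, limma adjusted p = 0.88). Lce1f, with medians of 85.7 in N-IKKa, 165 in WT and 131 in C-IKKa, gave −0.63 (SE 0.32, limma adjusted p = 0.88). In both genes the groups overlapped. In N-IKKa against C-IKKa the smallest p values after Lce1a1 were those of Lce1a2, at −0.80 (SE 0.35, limma adjusted p = 0.416), and Flg, at 0.57 (SE 0.25, limma adjusted p = 0.418). Lce1a2 ran from 97.8 to 385 in N-IKKa with a median of 226 and from 317 to 592 in C-IKKa with a median of 368, and Flg from 1959.7 to 4248 in N-IKKa with a median of 2393. The groups overlapped in both.

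Read as classes, the LCE genes had negative differences together in N-IKKa without passing the test singly. All 10 tested LCE genes were below 0 in N-IKKa against WT, with a median log2 difference of −0.53 (−0.13 with each library scaled to Krt1 and Krt10), where all tested genes had a median of 0.01. All 10 were also below 0 in N-IKKa against C-IKKa, with a median of −0.70 (−0.02 with that scaling, under which some members turned), where all tested genes again had 0.01. In C-IKKa against WT, 9 of 10 were above 0, with a median of 0.22 that turned to −0.05 with that scaling. The groups differ in their number of high hair shaft samples, of which N-IKKa has 3, WT 2 and C-IKKa 1. The part of this in the medians was not tested. With hair state as a covariate the medians were −0.41, −0.40 and 0.08, and without the high samples −0.22, −0.24 and 0.03. With the covariate all 10 stayed below 0 in both N-IKKa comparisons, at −0.05 or less against WT and −0.30 or less against C-IKKa. Without the high samples the highest were 0.01 and −0.06. The scaling to Krt1 and Krt10 itself shifts the median of all tested genes to 0.41, 0.68 and −0.27.

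The SPRR genes had the opposite sign in each comparison, with far wider limits. The 3 tested SPRR genes gave medians of 0.45 in N-IKKa against WT, 0.99 in N-IKKa against C-IKKa and −0.76 in C-IKKa against WT. With hair state as a covariate these medians were −0.25, −0.16 and 0.07, so the sign turned in all 3. Without the high samples they were 0.30, −0.34 and 1.01, so the sign turned against C-IKKa and in C-IKKa against WT but not in N-IKKa against WT. That fit held 4 WT, 3 N-IKKa and 5 C-IKKa libraries. The mean log2 value of the 3 SPRR genes was 9.06 in C-IKKa 15 and 4.28 to 6.05 in the other low C-IKKa libraries. The part of C-IKKa 15 in these signs was not tested. Crnn gave −1.08 in C-IKKa against WT with 95% limits from −5.91 to 3.74. With hair state in the fit its difference was 0.31, and its SE went from 2.29 to 0.69. Limits were narrower for the plakins: Ppl, which encodes periplakin, gave −0.07 in C-IKKa against WT (95% limits −0.31 to 0.18), and Evpl, which encodes envoplakin, gave −0.14 (95% limits −0.40 to 0.11). A difference of more than 0.31 downward or 0.18 upward in Ppl thus lies outside these limits, while the limits of Crnn leave room for a large difference either way.

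Single markers of keratinocyte state were called between genotypes, and their part in the values above was not tested. Of the 4 suprabasal keratins Krt2 rose in C-IKKa against WT, from a median of 23.3 to 81.6 normalized counts (log2 difference 1.79, SE 0.35, limma adjusted p = 0.0244). The other 3 also lay above 0 and were not called. Of the 5 tested stress keratinocyte genes Krt16 was lower in N-IKKa, with a median of 157, than in C-IKKa, with 890.1 (log2 difference −2.69, SE 0.54, limma adjusted p = 0.0306). The other 4 were not called, and the 5 split into 2 above and 3 below 0. In C-IKKa against WT 1 of the 5 lay above and 4 below 0, none of them called. The lists thus show no shared shift of stress genes.

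**Figure D2:**
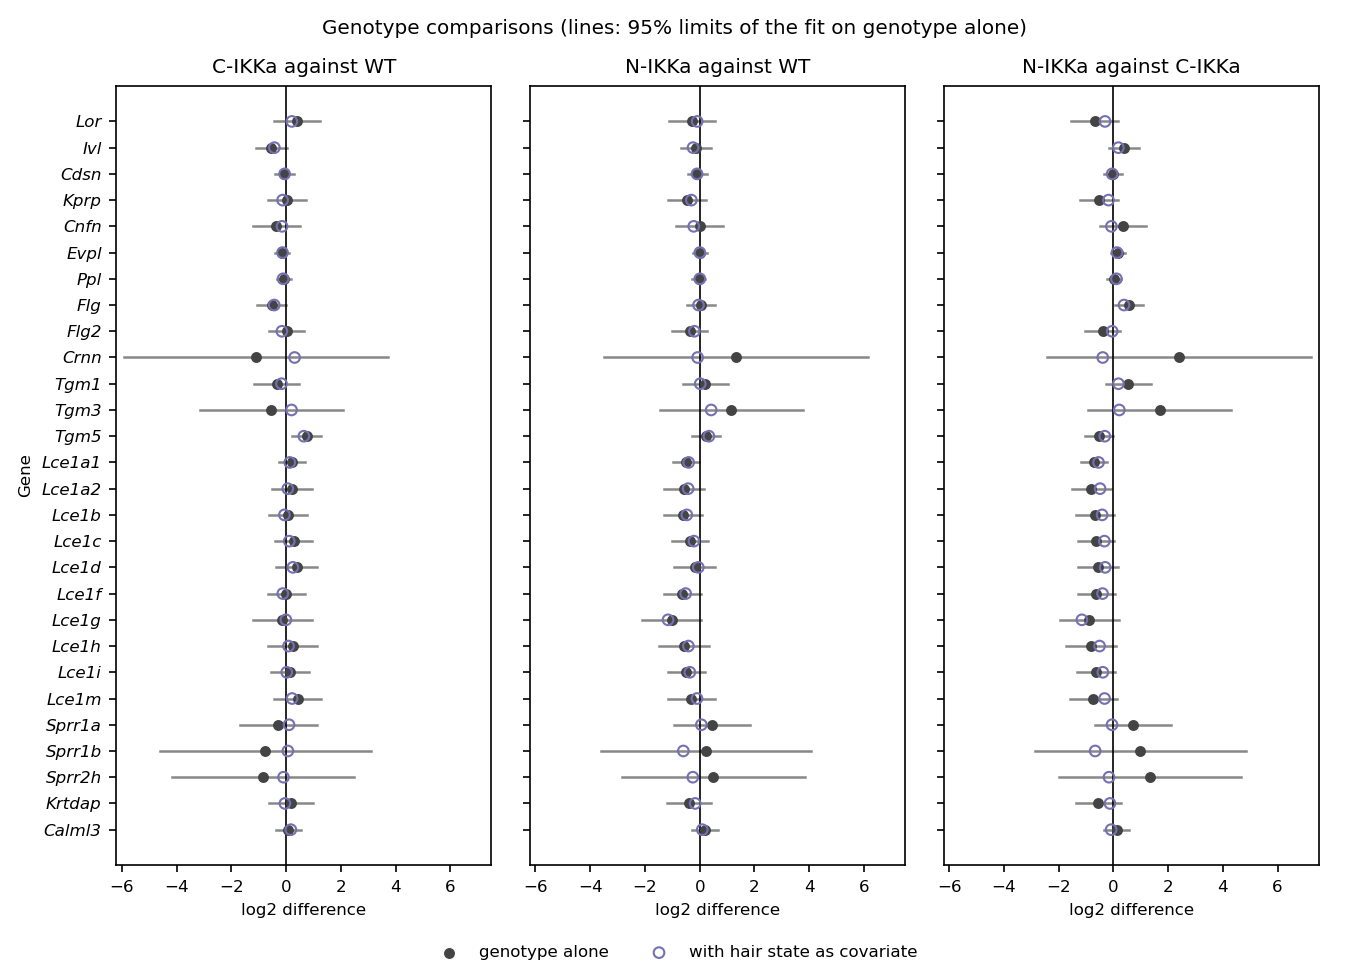
Points are log2 differences of the 28 tested genes in the 3 genotype comparisons, 6 libraries against 6, from limma with genotype alone (filled, lines are 95% limits) and with hair state as a covariate (open). No gene was called in any panel, and the long lines of Crnn, Tgm3, Sprr1b and Sprr2h belong to genes that follow the hair state.

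Between hair states the same genes differed widely. Limma, with genotype as a covariate, called 25 of the 28 tested genes between the 6 high and the 12 low hair shaft samples, where 51.5% of all 17667 tested genes were called. In the high samples 10 genes rose, against a background of 25.2%, and 15 fell, against a background of 26.3%. Crnn, Sprr1b, Sprr2h, Tgm3 and Sprr1a rose most, while Krtdap, Lor, Flg2, Kprp and 9 LCE genes fell, and with libraries scaled to Krt1 and Krt10 none of the 15 that fell remained lower at the threshold. At an unadjusted p below 0.05 there were also 25 of the 28, against 57.3% of all tested genes. The scaling moves the median of all genes from −0.01 to 1.08, and under it 15 of the 28 were called higher, against 74.9% of all tested genes. In whole skin, fewer epidermal cells in a sample and less RNA per cell cannot be told apart.

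Promoters are shown for 4 genes that stand for the 2 directions: Crnn and Sprr1a, which rose in the high hair shaft samples, and Lor and Lce1c, which fell except under the scaling to Krt1 and Krt10. Each sequence is the 250 bases before the RefSeq transcription start on GRCm38.p6, read 5′ to 3′ on the strand of the gene, and capitals mark TATAAA and TGANTCA on either strand. TATAAA is the core of a TATA box, and TGANTCA covers the site that AP-1 factors bind. The deposited values were counted on GRCm39, a later build. Crnn lies at chr3:93144539-93144788 on the plus strand, Sprr1a at chr3:92485882-92486131 on the minus strand, Lor at chr3:92083143-92083392 on the minus strand and Lce1c at chr3:92678997-92679246 on the plus strand.
Crnn: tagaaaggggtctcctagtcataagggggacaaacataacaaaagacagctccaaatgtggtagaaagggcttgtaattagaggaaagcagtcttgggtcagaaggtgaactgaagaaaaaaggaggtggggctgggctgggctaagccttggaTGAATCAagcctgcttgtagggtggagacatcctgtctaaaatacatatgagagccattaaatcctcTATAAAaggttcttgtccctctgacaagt
Sprr1a: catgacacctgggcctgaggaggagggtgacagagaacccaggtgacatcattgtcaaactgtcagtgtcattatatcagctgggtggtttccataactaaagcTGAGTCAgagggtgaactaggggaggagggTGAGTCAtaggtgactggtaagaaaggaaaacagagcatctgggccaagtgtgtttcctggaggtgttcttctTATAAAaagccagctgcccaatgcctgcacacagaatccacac
Lor: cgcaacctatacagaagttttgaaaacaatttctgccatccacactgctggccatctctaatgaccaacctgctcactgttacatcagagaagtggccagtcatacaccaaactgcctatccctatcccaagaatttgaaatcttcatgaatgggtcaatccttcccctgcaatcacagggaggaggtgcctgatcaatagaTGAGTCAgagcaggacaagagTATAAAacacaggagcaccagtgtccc
Lce1c: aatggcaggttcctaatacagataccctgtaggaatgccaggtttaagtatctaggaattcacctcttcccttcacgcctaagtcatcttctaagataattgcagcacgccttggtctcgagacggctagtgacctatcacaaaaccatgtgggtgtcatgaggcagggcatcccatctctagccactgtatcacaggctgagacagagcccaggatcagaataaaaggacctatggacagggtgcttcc

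Crnn holds TATAAA starting 29 bases before the start and TGANTCA starting 96 bases before it. Sprr1a holds TATAAA 43 bases before the start and TGANTCA at 146 and 116 bases. Lor holds both, at 27 and 48 bases, and Lce1c holds neither. RefSeq promoters were found for 33 of the 38 genes. TATAAA stood in 16 of these 33 and TGANTCA in 14, against 12.4% and 6.75% of all 32851 mouse promoters of the same length. The 33 hold the first listed start of each gene, while the background may hold several starts of a gene, so the sets are not quite alike. By class, 6 of 7 SPRR promoters held TATAAA and 6 of 7 held TGANTCA, while of 10 LCE promoters 2 held TATAAA and 0 held TGANTCA. Of the 9 promoters of genes that rose with hair state 7 held TATAAA and 6 TGANTCA, and of the 12 of genes that fell 4 and 3 did. These matches describe letters in the window. Neighbouring genes of a family share ancestry and sequence, so they are not independent of each other.

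Crnn changed most. Cornulin is an S100-fused protein, known from squamous epithelia of the mouth and gullet. Crnn held 2798 normalized counts in C-IKKa 14, 5372 in N-IKKa 9, 6508 in WT 1, 11088 in N-IKKa 11, 13061 in N-IKKa 8 and 19549.9 in WT 4. In the 12 low samples it ran from 7.92 to 186 with a median of 21.2. The lowest high sample lay above the highest low sample, C-IKKa 18, which also had the highest hair keratin mean among the low samples, at 5.42. The log2 difference was 8.37 (SE 0.62, limma adjusted p = 1.52e-08), and in the female libraries alone it was 8.49. Without C-IKKa 14 it was 9.02.

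Tgm3 followed the same pattern at a lower level. It encodes the transglutaminase that cross-links trichohyalin and keratins of the hair. The 6 high samples ran from 185 to 1711 with a median of 783, and the 12 low samples from 10.5 to 50.8 with a median of 32.7. The ranges did not overlap, and C-IKKa 14 was the lowest of the high samples. The log2 difference was 4.41 (SE 0.41, limma adjusted p = 1.53e-07), or 5.05 without C-IKKa 14.

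Tgm1, which encodes the main transglutaminase of the epidermis, rose by a smaller step. It ran from 41.6 to 100.5 with a median of 70.4 in the high samples and from 18.5 to 49.3 with a median of 30.5 in the low ones, with overlap at the edge (log2 difference 1.07, SE 0.25, limma adjusted p = 0.00147). In the females alone it gave 0.80 and missed the threshold (limma adjusted p = 0.0552). Tgm5 fell, with a median of 240.5 in the high and 479 in the low samples (log2 difference −0.64, SE 0.16, limma adjusted p = 0.00333). The 3 transglutaminases thus did not share a direction, except under the scaling to Krt1 and Krt10, where Tgm5 gave 0.45.

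**Figure D3:**
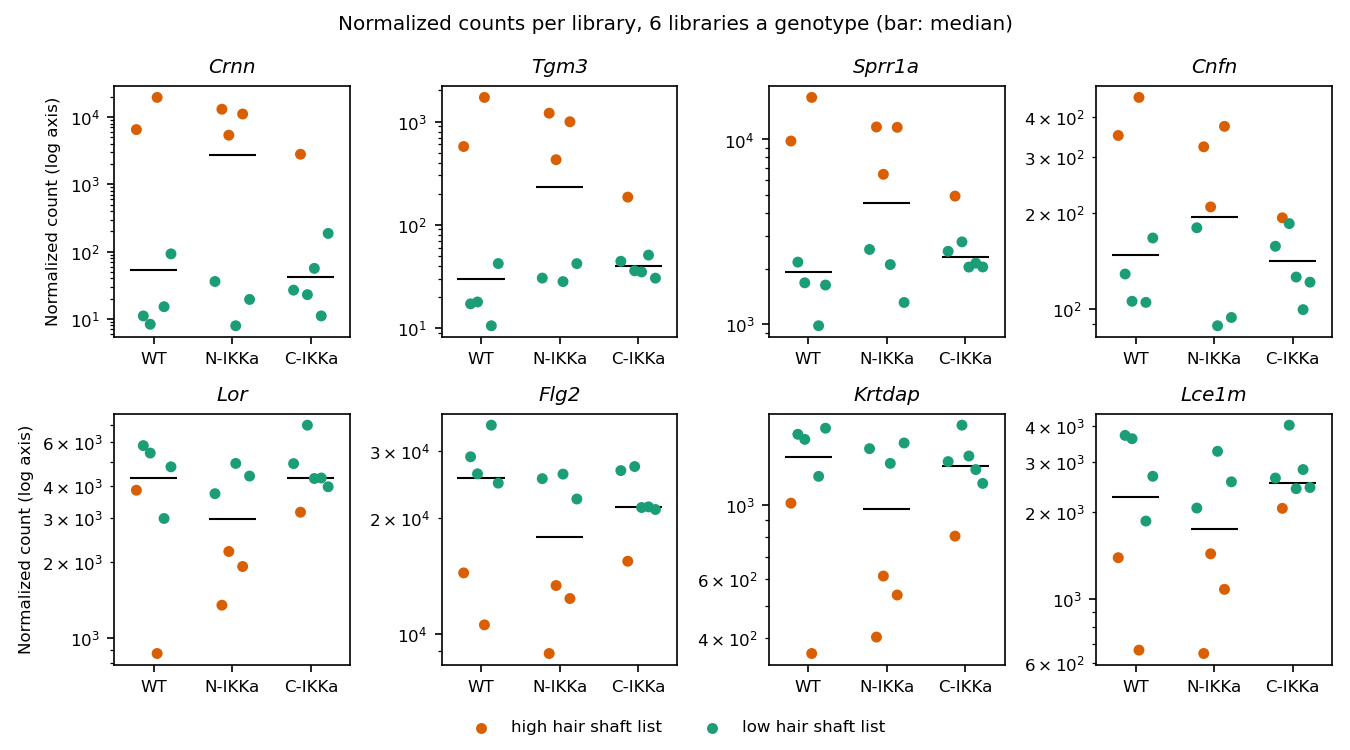
Each point is the normalized count of 1 library on a log axis, by genotype, with bars at the median of 6 libraries; orange marks the 6 high and green the 12 low hair shaft samples. In Crnn, Tgm3, Sprr1a and Cnfn all orange points lie above all green points, and in Flg2 and Krtdap they all lie below, a direction that in Flg2 turns with scaling to Krt1 and Krt10.

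All 3 tested SPRR genes rose. Sprr1a ran from 4936 to 16891 with a median of 10718 in the high samples and from 980.5 to 2789.7 with a median of 2071 in the low samples, without overlap (log2 difference 2.31, SE 0.25, limma adjusted p = 7.99e-07). Sprr1b ran from 14.7 to 425 with a median of 198 in the high samples and from 0 to 419.5 with a median of 1.78 in the low samples. The ranges overlapped because of C-IKKa 15 with 419.5 and C-IKKa 13 with 15.4, and the other 10 low samples reached 7.06 at most. The log2 difference of Sprr1b was 4.97 (SE 1.15, limma adjusted p = 0.00162), or 5.32 without C-IKKa 15 and 6.12 without C-IKKa 14.

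Sprr2h ran from 14.2 to 489.7 in the high samples with a median of 195 and from 0 to 129 in the low ones with a median of 3.99, where C-IKKa 15 again held the highest value. Its log2 difference was 4.50 (SE 0.95, limma adjusted p = 0.000765), or 5.23 without C-IKKa 14. Sprr1b and Sprr2h reached 10 normalized counts in 2 of the 12 low samples and in all 6 high samples, so they passed the filter through the high samples and had to differ. Both fold changes also depend on the pseudocount. Of the 28 genes, 24 passed a filter of 50 normalized counts, which these 2 did not, and 22 of the 24 were called, 7 higher and 15 lower, against 56.5% of the genes tested with that filter.

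Most LCE genes went the other way, and 9 of the 10 tested LCE genes fell in the high hair shaft samples. None of the 9 remained lower at the threshold when libraries were scaled to Krt1 and Krt10. The largest change was in Lce1m, which ran from 647 to 2064 with a median of 1236 in the high samples and from 1864 to 4012 with a median of 2647 in the low ones (log2 difference −1.23, SE 0.22, limma adjusted p = 0.000167). The ranges overlapped by 1 high sample, C-IKKa 14, and 1 low sample, WT 5. Next were Lce1h at −0.95, Lce1a2 at −0.94, Lce1c at −0.93, Lce1d at −0.81, Lce1b at −0.79, Lce1i at −0.75, Lce1f at −0.71 and Lce1a1 at −0.53. Summed over the 11 LCE genes, the high samples ran from 1489.98 to 3989.98 and the low samples from 4183 to 7421 normalized counts, so the sums did not overlap. Lce1m, the most abundant, weighs most in these sums. As a mean log2 value over the 10 tested LCE genes, the states did overlap. WT 1 at 8.07 and C-IKKa 14 at 7.38, both high samples, lay within the low range of 7.34 to 8.37.

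Lce1g was the exception among the tested LCE genes. Its median was 18.8 in the high and 16.8 in the low samples, and its log2 difference was 0.81 (SE 0.42, 95% limits −0.07 to 1.70, limma adjusted p = 0.115). The highest value, 74.6, was that of WT 1. Without WT 1 it gave 0.51, and without C-IKKa 14 it gave 1.38 and passed the threshold (limma adjusted p = 0.00748). It was also called higher by DESeq2 on recovered reads (1.05, adjusted p = 0.0326) and by limma with the scaling to Krt1 and Krt10 (1.91, adjusted p = 0.000332). WT 4 weighed on the LCE genes that fell: without that library Lce1d (−0.52), Lce1f (−0.62), Lce1h (−0.78) and Lce1i (−0.52) fell short of the threshold. Lce1h also did so without C-IKKa 14 (−0.82).

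The scaffold and junction genes split. Lor ran from 871 to 3859 with a median of 2066 in the high samples and from 2982 to 6982 with a median of 4583 in the low ones (log2 difference −1.14, SE 0.24, limma adjusted p = 0.000874). Kprp, which encodes a keratinocyte proline-rich protein, ran from 1348 to 3586 in the high samples and from 3674 to 6202 in the low ones, without overlap (log2 difference −1.02, SE 0.18, limma adjusted p = 0.000134). Ppl fell by 0.25 (SE 0.09, limma adjusted p = 0.023), with medians of 9531 and 11329.9, and was not called without WT 1, N-IKKa 7, N-IKKa 9 or C-IKKa 14 (−0.23 to −0.21) or with sex as a covariate (−0.10). With the scaling to Krt1 and Krt10 these 3 gave −0.04, 0.08 and 0.85.

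Against them, Cnfn and Ivl rose. Cnfn, which encodes cornifelin, ran from 193 to 460.1 in the high samples and from 88.9 to 185 in the low ones, without overlap (log2 difference 1.28, SE 0.21, limma adjusted p = 5.91e-05). Ivl had medians of 3128 and 1594 (log2 difference 0.65, SE 0.18, limma adjusted p = 0.00628), and 2 high samples, N-IKKa 9 with 1429 and C-IKKa 14 with 1509.5, stayed within the low range. Evpl gave 0.08 (95% limits −0.14 to 0.31, limma adjusted p = 0.52) and Cdsn 0.10 (95% limits −0.21 to 0.40, limma adjusted p = 0.601). With the scaling to Krt1 and Krt10 both were called higher, at 1.18 and 1.19. Loricrin and involucrin, laid into the same envelope, thus had differences of opposite sign between the hair states, except under the scaling to Krt1 and Krt10, where Lor was near 0 and Ivl at 1.74.

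The 3 tested S100-fused genes split as well. Flg2, which encodes filaggrin-2, ran from 8872 to 15457 with a median of 12854 in the high samples and from 21104 to 35056 with a median of 25761 in the low ones, without overlap. The log2 difference of Flg2 was −1.03 (SE 0.12, limma adjusted p = 2.7e-06), and 0.06 with the scaling to Krt1 and Krt10. Flg had medians of 2739.9 and 1962 and rose by 0.53 (SE 0.18, limma adjusted p = 0.022). That call rested on WT 1, without which Flg gave 0.32 (limma adjusted p = 0.0909), and it was also lost without N-IKKa 11 (0.45, limma adjusted p = 0.0535).

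Of the secreted and calcium-binding genes, 2 were tested. Krtdap, which encodes a secreted peptide of differentiating keratinocytes, fell more than any other of the 28 genes. It held 359.6 normalized counts in WT 4, 403 in N-IKKa 8, 537 in N-IKKa 11, 612 in N-IKKa 9, 805 in C-IKKa 14 and 1010.0 in WT 1. In the low samples it ran from 1157 to 1726 with a median of 1432, so all high samples lay below all low ones. The log2 difference was −1.27 (SE 0.17, limma adjusted p = 1.19e-05), and −0.17 with the scaling to Krt1 and Krt10. Calml3, a calmodulin-like gene of epithelia, rose by 0.59 (SE 0.14, limma adjusted p = 0.00188), with medians of 3866 and 2528.

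**Figure D4:**
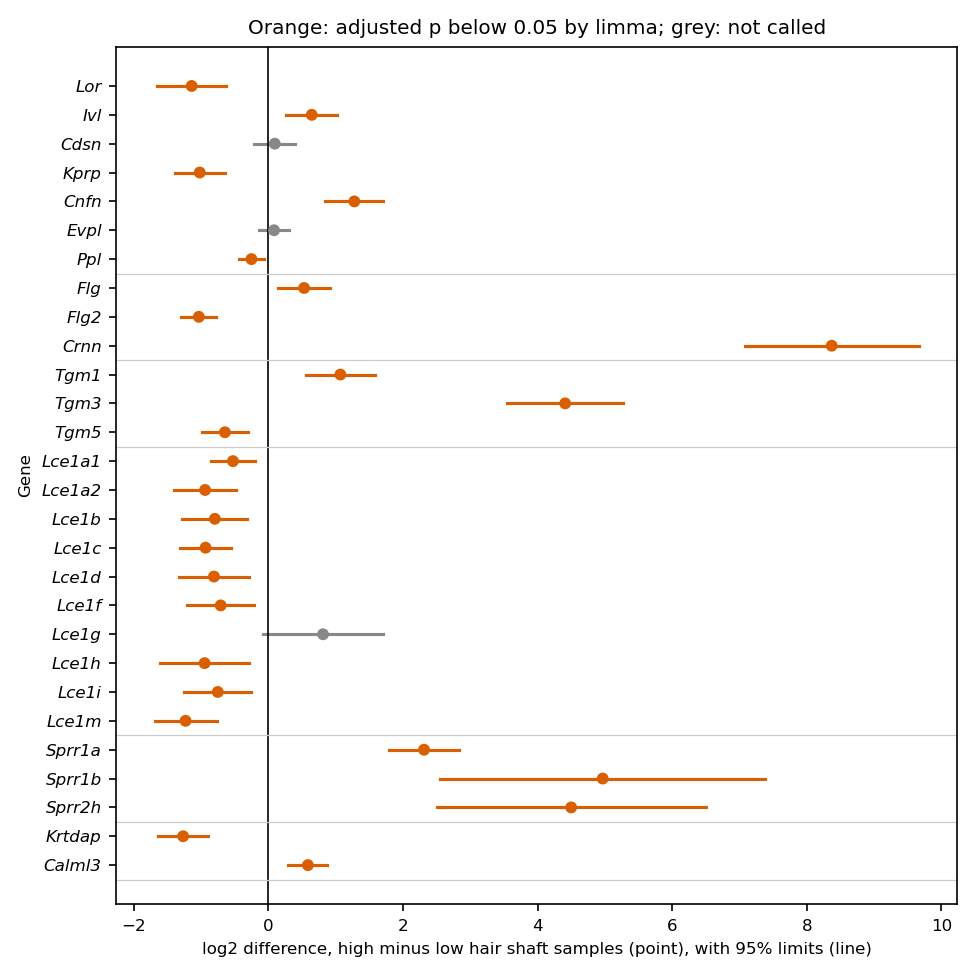
Points are log2 differences, high minus low hair shaft samples (6 against 12 libraries), with 95% limits, from limma with genotype as a covariate; orange genes were called and grey genes were not. The 3 SPRR genes, Crnn and Tgm3 lie far to the right and 9 of 10 LCE genes lie left of 0, the latter a direction that is lost or turns with scaling to Krt1 and Krt10.

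In all, 4 of the 28 genes lay above in every high sample (Cnfn, Crnn, Tgm3 and Sprr1a) and 3 lay below (Kprp, Flg2 and Krtdap), against backgrounds of 8.45% and 5.25% of all tested genes. The ranges of the other 21 overlapped. In the 10 female libraries alone 14 of the 28 were called, 6 higher and 8 lower, against 27.0% of all tested genes in either direction. The calls not reached there were those of Lor, Ivl, Ppl, Flg, Tgm1, Calml3, Lce1b, Lce1d, Lce1f, Lce1h and Lce1i. With sex added as a covariate 21 were called, 8 higher and 13 lower, against 41.2% of all tested genes, and Ppl, Calml3, Flg and Lce1h were the 4 calls lost. Whether the hair effect itself differed by genotype was tested as an interaction. None of the 28 genes was called, against backgrounds of 0.238% for C-IKKa against WT and 0.0% for N-IKKa against WT. At an unadjusted p below 0.05 there were 5 and 1 of the 28 genes, against 15.2% and 8.55% of all tested genes, which lies near the background. Tgm3 came nearest, with a hair effect in C-IKKa minus that in WT of −3.38 on the log2 scale (SE 0.79, limma adjusted p = 0.0615), but C-IKKa holds only 1 high sample, C-IKKa 14.

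Markers of other cells moved with the same hair states, and their part in these results was not tested. The calls below stand against 51.5% of all tested genes called between hair states, 25.2% higher and 26.3% lower. The suprabasal keratins Krt10 (−1.10), Krt1 (−1.10) and Krt77 (−1.04) fell, 3 of 4 in their list (Krt77 gave 0.061 with the scaling to the other two), which summed to 30958 to 82536 normalized counts in the high and 95332 to 159242 in the low samples. Of the fibroblast list 5 of 6 genes fell (28446 to 69806.5 against 44107 to 404628 normalized counts), of the leukocyte list 5 of 6 (1186 to 2746 against 2642 to 3881) and of the adipocyte list 5 of 5 (3159 to 12587 against 5776 to 15134), of which only the fibroblast genes Col1a1 and Col1a2 remained lower at the threshold with the scaling to Krt1 and Krt10. All 4 melanocyte genes rose (3528 to 11308 against 328 to 1929). Of the sebaceous gland list 2 rose and 3 fell of 6, of the skeletal muscle list 2 of 6 fell, of the endothelial list 1 of 3 fell, and neither basal keratin was called. Of the 5 tested stress keratinocyte genes 3 rose, Krt6a (1.47), S100a8 (1.38) and Krt17 (0.64), and the 6 listed genes summed to 9716 to 21081 against 6269 to 10753. None of the genes in these lists was at 0 in every library.

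Other genes of the pathway were compared between hair states, where 51.5% of all tested genes were called, 25.2% higher and 26.3% lower. Of 21 further envelope genes 8 were tested, of which 1 rose and 2 fell, a share below that background. Tchh, which encodes trichohyalin, is in this list and was not among the genes called. Tchhl1, a trichohyalin-like gene of the S100-fused family, ran from 1641 to 17059 normalized counts in the high and from 4.40 to 190.1 in the low samples (log2 difference 8.07, SE 0.64, limma adjusted p = 3.16e-08), close to the pattern of Crnn. Lce1l (−1.05) and Lce6a (−0.58) fell, and gave 0.049 and 0.52 with libraries scaled to Krt1 and Krt10. Of 14 envelope processing genes 9 rose and 2 fell. The largest were the protein arginine deiminases, which convert arginine to citrulline in hair and filaggrin proteins: Padi3 rose by 8.87 (SE 0.78), Padi1 by 7.98 (SE 0.67) and Padi4 by 3.74 (SE 0.39), and St14, which encodes the membrane protease matriptase, by 1.36 (SE 0.11). Of 14 tested regulators of differentiation 8 rose and 3 fell. Ovol1 (1.35), Hopx (0.78) and Prdm1 (0.72), regulators of transcription in epidermis, were among those that rose. Among these processing and regulator genes, the fall of Klf4 (−0.56), a transcription factor of barrier formation, turned to 0.54 with the scaling to Krt1 and Krt10. Between genotypes, limma called no gene of these 3 lists, and at an unadjusted p below 0.05 there were 1 of the processing genes in each comparison and, in N-IKKa against C-IKKa, 1 further envelope gene and 2 regulators.

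On chromosome 3, 26 of the 38 genes lie in the epidermal differentiation complex. In an annotation of the earlier mouse build, 49 protein-coding genes start from the first to the last of them, these genes included. Read along the chromosome, neighbours went in opposite directions between hair states. Lor fell at one end, the 3 tested of 7 SPRR genes and Ivl rose next to each other (Sprr1b and Sprr2h passed the filter through the high samples), and the LCE genes from Lce1a1 to Lce1i, with Kprp and Lce1m, fell together apart from Lce1g. Beyond them Crnn rose by 8.37, its neighbour Flg2 fell by 1.03 and Flg rose by 0.53. With libraries scaled to Krt1 and Krt10, the genes that fell here were no longer lower at the threshold, and those that rose remained higher.

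Of the 10 genes below the filter, 4 held reads in more than 1 library and were compared between genotypes, and 6 were not tested. Hrnr and Rptn (S100-fused genes, encoding hornerin and repetin), Calm4 and Lgals7 (encoding a calmodulin-like protein and galectin-7) and Sprr2a1 were listed at 0 in every library, and Sbsn, which encodes suprabasin, held 1 read in C-IKKa alone. Only the listing at 0 can be stated. In transcripts of the earlier build, 89.6% of the 150-base windows of Sprr2a1 also occur in Sprr2a2 or Sprr2a3, as do 15.1% of those of Lce3c in other Lce3 genes, while those of Hrnr, Rptn, Calm4 and Lgals7 occur in no other gene. By counting error alone, a listed 0 allows up to 3 reads, or 2.45 to 3.61 normalized counts. The annotation release and strand setting are not stated, so whether reads of these genes could be counted is not known. The listed zeros therefore set no upper limit on their expression.

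Lce3c, Sprr2b, Sprr2d and Sprr2e held reads in some libraries. Lce3c ran from 0 to 33.1 in WT, from 0 to 4.66 in N-IKKa and from 0 to 15.6 in C-IKKa, with WT 4 and C-IKKa 15 the highest. Sprr2d ran from 0 to 17.1 in WT, from 0 to 5.54 in N-IKKa and from 0.924 to 98.2 in C-IKKa, where C-IKKa 15 held the highest value and the other 5 libraries at most 4.08. Sprr2e reached 22.9 and Sprr2b 3.73. Over 12 exact two-sided permutation tests of these 4 genes, 6 libraries against 6, the smallest p was 0.206 and all adjusted p were 1, where the design allows a p as small as 0.00216.

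**Figure D5:**
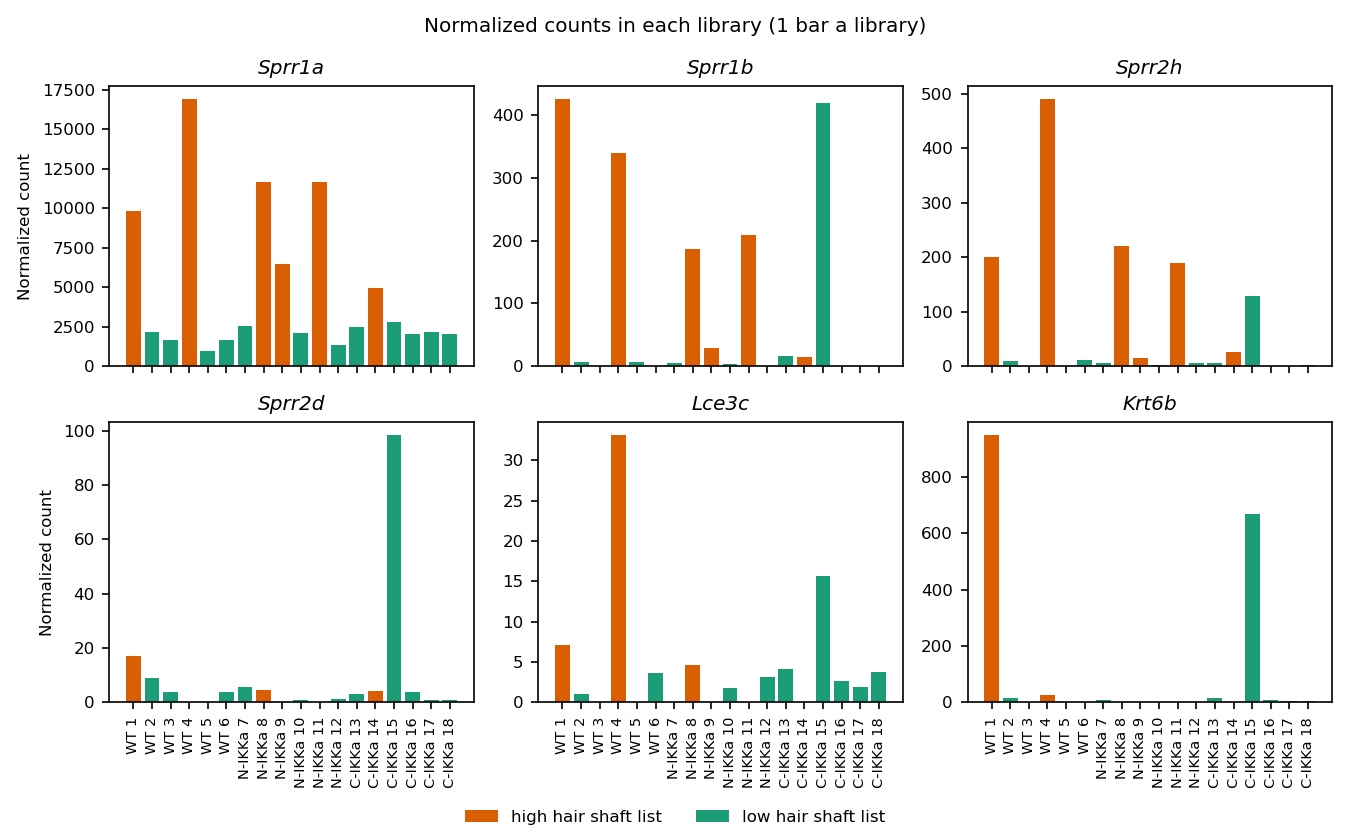
Bars are normalized counts in each of the 18 libraries for 4 SPRR genes, Lce3c and the stress keratin Krt6b, with orange for the 6 high and green for the 12 low hair shaft samples. C-IKKa 15, a low sample, reaches 419.5 in Sprr1b, 98.2 in Sprr2d and 667 in Krt6b, and WT 1 reaches 425 in Sprr1b and 948 in Krt6b.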

How the data were processed

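Bulk RNA of back skin was sequenced in 18 mice, 6 per genotype. Per the labels' protocols, RNA was taken with TRIzol and RNeasy MinElute columns, and a stranded mRNA kit and a NovaSeq instrument gave paired-end reads of 150 bases. Counting used featureCounts and the build GRCm39, per the submitters' processing notes. Not given in the sources used here are the aligner, the annotation release, the strand setting, the scaling tool and their versions. In the deposited table the signal is a normalized count per gene and library, which the authors appear to have made by dividing gene counts by 1 size factor per library: within a tolerance of 0.001 reads, 100% of the values of every library were multiples of the value of 1 read, so reads were recovered. Depth was 11.1 to 15.7 M reads, and a listed 0 allows up to 3 reads; such floors cover counting error only, since reads carry no molecular identifiers.

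Values were analysed as log2(normalized count + 1). The 17667 genes with at least 10 normalized counts in at least 6 libraries were fitted in R 4.3.3 with the moderated test of limma 3.58.1 (trended empirical Bayes), with 1 mean per genotype over all 18 libraries (15 residual degrees of freedom). P values are two-sided and Benjamini-Hochberg adjusted over all tested genes per comparison, and calls were made where the adjusted p was below 0.05. Log2 differences understate the change of low genes. The hair state comparison added high against low hair shaft samples to genotype, with the boundary at 7.85 in the widest gap of the list mean (18 of 19 listed keratins were in the table). Libraries with over 500 normalized counts of Ddx3y were read as male. Whether mice came from separate litters is not labelled, so p values measure the spread between these samples. Genes below the filter were compared by exact permutation tests.

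The 38 genes, their classes and all other lists were chosen with earlier results of these data known. Named first were called genes or, with none, the 3 smallest p of each genotype comparison, and the largest called change in each direction between hair states; their values are given as lowest, median and highest per group. Of other lists up to 4 called genes were named, and other genes named were chosen after their values were seen. The alternatives tried were a pseudocount of 0.5 or 5, a filter of 50 or none, TMM, DESeq2 size factors, scaling to Krt1 and Krt10, edgeR 4.0.16 and DESeq2 1.42.0 on recovered reads, hair and sex covariates, subsets and each library left out. Scripts were tested on simulated data. Sequences came from RefSeq tables of GRCm38.p6, and windows of transcripts, exon length and gene order came from an annotation of that earlier build.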

Additional observations from a re-analysis of the deposited data

Results flagged for a closer look

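Of 96 groups of 6 libraries, 15 held 1 library whose gap to its nearest neighbour exceeded 0.625 of the range, where chance gives about 1 in 20 groups. The genes are not independent, so 1 library can account for several.

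WT 4, a high hair shaft sample, was lowest in WT for 5 genes: Lor (871 normalized counts, the other 5 WT libraries 2982 to 5796), Krtdap (359.6 against 1010.0 to 1690.2), Lce1a2 (123 against 318 to 555), Lce1c (210.1 against 538 to 882) and Lce1d (74.2 against 226 to 387). C-IKKa 14, the high hair shaft sample of its group, was highest in C-IKKa for Tgm3 (185 against 30.4 to 50.8) and Sprr1a (4936 against 2037 to 2789.7). WT 1 was highest in WT for Flg (5669 against 1825 to 2272), Sprr2e (7.06 against 0 to 1.14) and Sprr2b (1.01 against 0). C-IKKa 15 was highest in C-IKKa for Lce1a2 (592 against 317 to 394), Sprr2d (98.2 against 0.924 to 4.08) and Sprr2e (22.9 against 0). N-IKKa 8 was highest in N-IKKa for Sprr2b (3.73 against 0) and Sprr2e (1.86 against 0). The values of Sprr2b, and those of Sprr2e in N-IKKa, are a few reads or fewer.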

How the results depend on the processing

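Between genotypes, 0 of 28 genes were called under any of 32 alternatives, and with 1 library left out the counts ran from 0 to 0; 54 of the 84 differences, none of them called, changed sign under at least 1 alternative. Between hair states the 25 calls became 15, all higher, with libraries scaled to Krt1 and Krt10, where 74.9% of all tested genes were called higher, and 14 in female libraries alone, where 27.0% were called; the cause was not tested in the second case, where fewer libraries were fitted. With 1 library left out the count ran from 21 to 25, and 19 calls held in each such fit. Over the single genes, leaving out 1 library cost the call in 11 fits, gave a new one in 1 and turned 0 directions, and 492 were as before; the other alternatives cost the call in 18, gave a new one in 4, turned the direction in 12 and left 297 as before. With libraries scaled to Krt1 and Krt10 the direction turned in Lce1b (0.30), Lce1c (0.16), Lce1d (0.29), Lce1f (0.39), Lce1h (0.15), Lce1i (0.35), Lce1a1 (0.57), Lce1a2 (0.16), Ppl (0.85), Flg2 (0.064), Tgm5 (0.45) and Kprp (0.078), since every difference moves by the change of those keratins. Without C-IKKa 14, Crnn gave 9.02, Tgm3 5.05, Sprr1b 6.12 and Sprr2h 5.23. Exact permutation tests of genes below the filter called 0, also with 1 library left out (0 to 0). No paired analysis was possible because the genotype groups share no replicate numbers. Genes listed at 0 in every library could not be compared, and the reason for the zeros was not tested.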

Other observations

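WT 1, a high hair shaft sample, and C-IKKa 15, a low one, shared high values of several stress-inducible genes. Krt6b, a keratin of wounded epidermis, held 948 normalized counts in WT 1 and 667 in C-IKKa 15, and at most 25.1 in the other 16 libraries. Sprr1b held 425 and 419.5, Sprr2d 17.1 and 98.2, and Sprr2e 7.06 and 22.9 in these libraries, in that order. Sprr1b was also high in other high hair shaft samples, at 339 in WT 4, 209 in N-IKKa 11 and 186 in N-IKKa 8. S100a9, an alarmin of neutrophils and stressed keratinocytes, held 1072 in WT 1 and 55.1 in C-IKKa 15, and at most 36.3 in the other 16 libraries. S100a8 held 336 in WT 1 but 23.9 in C-IKKa 15, below the 50.2 of WT 4, so not all such genes were high in both. Among the 12 low hair shaft samples, C-IKKa 15 had the highest value of 12 of the 28 tested genes, among them Lor, Krtdap and several LCE genes. The share over all tested genes was not taken, so this count has no background. C-IKKa 15 also held the highest Krt1 (19844), Krt10 (62544) and Krt77 (76807) of all 18 libraries, so its high values were not limited to stress-inducible genes. The genes and libraries named here were chosen after their values were seen.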
